A study of Mus musculus with 6 samples.

Results

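Cytosolic ribosomal protein genes were examined in neuromesodermal progenitors (NMPs), caudal progenitors of the spinal cord and of the paraxial mesoderm, after 2 h of retinoic acid (RA). Members were taken by name from the gene symbols in the deposited tables, as Rpl or Rps followed by a number, Rplp for the P-stalk, and Rpsa. The endings a, l, x and l1 were allowed, of which l and l1 name the copies listed below. The rule gave 84 of 20631 genes and 105 of 30352 transcripts. These comprise 49 genes of the large subunit, 32 of the small subunit and 3 of the P-stalk. Of the 84 genes, 76 encode standard subunits and 8 are copies named after another member (*Rpl3l*, *Rpl7l1*, *Rpl10l*, *Rpl22l1*, *Rpl36al*, *Rpl39l*, *Rps4l* and *Rps27l*). The only transcript listed for *Rps4l* is annotated as non-coding in RefSeq.

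All 6 samples were NMPs made from mouse embryonic stem cells by 2 days in bFGF and 1 day in bFGF plus the WNT agonist CHIR99021, in N2B27 medium with a B27 supplement free of retinoids. bFGF and CHIR99021 were then withdrawn and the cells were treated for 2 h with RA at 25 nM or at 1 µM, or with the solvent DMSO, in 2 samples per condition. The labels give the strain as 129 R1 whereas the methods name C57BL/6 ESCs, kept on fibroblast feeders before differentiation. The duplicates were 2 culture dishes of the same experiment, which the methods call technical replicates. The p-values below thus measure the spread between dishes and not between independent experiments.

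The ribosome of the cytosol consists of a small subunit, which decodes the mRNA, and a large subunit, which joins amino acids. The mRNAs of these proteins are among the most abundant of dividing cells, are short, and usually begin with a run of pyrimidines (a 5′ terminal oligopyrimidine or TOP sequence) through which the kinase mTORC1 and the RNA-binding protein LARP1 control their translation and stability. Loss of 1 allele of several of these genes, such as *Rps19* or *Rpl5*, causes Diamond-Blackfan anaemia, and loss of 1 allele of *Rpl38* alters the pattern of the axial skeleton in mice.

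The libraries, made from total RNA after removal of rRNA, held between 31753556 and 42029348 estimated counts each. Levels are given in RPKM (reads relative to the length of the transcript and to the size of the library), which is per length and lets genes be compared, and tests were run on counts. The cells held the NMP transcripts *T* (*Brachyury*) at 367 to 380.1 RPKM and *Nkx1-2* at 38.9 and 39.3 RPKM in DMSO, with *Sox1* of committed neural cells at 0.25 or less. Of 6 pluripotency markers, *Pou5f1* lay at 432 to 470.5 RPKM, *Nanog* at 18.1 to 20.8 and *Zfp42* at 4.55 to 5.83. *Tfcp2l1* lay at 0.882 to 1.09, and *Esrrb* and *Klf4* below 1. The 7 fibroblast markers summed to between 5.26 and 6.27 RPKM. *Rarb*, an RA receptor gene, rose from 0.237 ± 0.032 RPKM in DMSO to 5.28 ± 0.44 at 25 nM and 6.77 ± 0.17 at 1 µM (SD, n = 2), and the RA response genes *Rarb*, *Cyp26a1*, *Cdx1*, *Stra8* and *Dhrs3* were called higher at both doses. In these bulk samples a change in the mix of cells and a change in RNA per cell cannot be told apart.

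In DMSO most ribosomal protein genes lay within a narrow band of high levels. The median over the 84 genes was 1053 RPKM, against 5.03 over all genes tested, and 65 of the 84 were among the 100 genes with the highest RPKM. Of the members, 45 exceeded 1000 RPKM, 23 lay between 500 and 1000, 9 between 100 and 500, 4 between 1 and 100, and 3 below 1. Among the 76 standard subunits, 64 lay within 2-fold of their median of 1077 RPKM. The 43 standard large subunit genes had a median of 1061 RPKM and the 30 small subunit genes one of 1119.96 RPKM.

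The 5 highest members in DMSO were *Rplp1*, *Rpl41*, *Rps12*, *Rps2* and *Rps18*. *Rplp1*, a P-stalk protein that helps recruit elongation factors, was at 2695 and 2799 RPKM in the DMSO dishes, 2932 and 2717 at 25 nM and 2982 and 2899 at 1 µM. *Rpl41*, which encodes the smallest protein of the ribosome, was at 2714 and 2749.7 in DMSO, 2929 and 2803 at 25 nM and 2715 and 2948 at 1 µM. These ranges overlap in DMSO, so the order of the first and second is not resolved. *Rps12* followed at 2623 and 2694 RPKM, *Rps2* at 2497 and 2623, and *Rps18* at 1972 and 2119. The other P-stalk genes were *Rplp0*, the base of the stalk, at 1979.6 ± 44.6 RPKM and *Rplp2* at 839.7 ± 15.8, and *Rpsa*, also known as the laminin receptor, was at 1162 ± 30.4 RPKM (SD, n = 2).

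**Figure D1:**
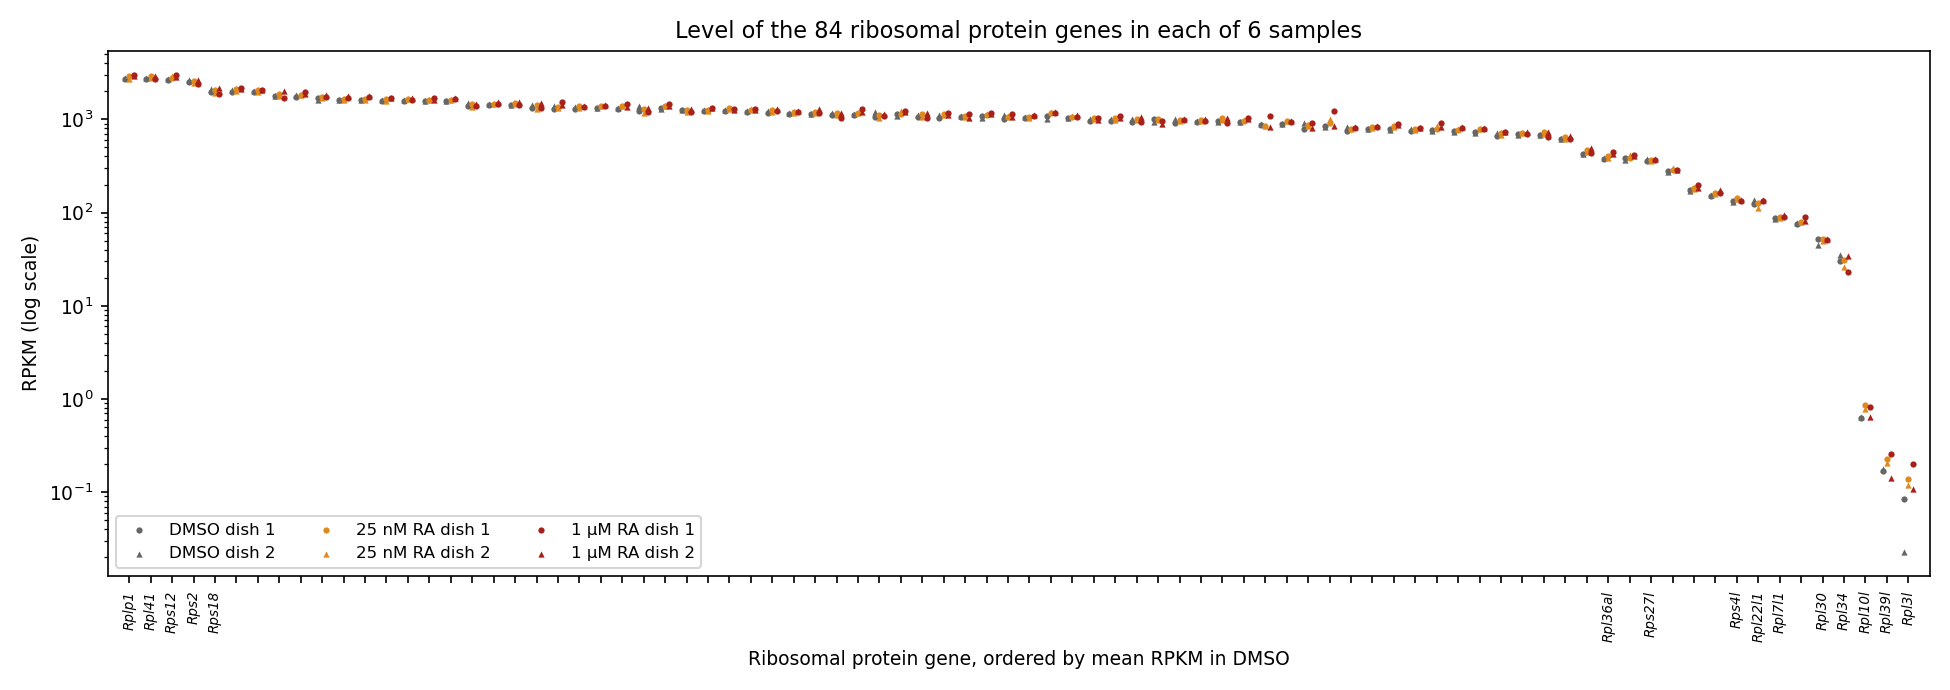
RPKM (log scale) of each of the 84 ribosomal protein genes in each of the 6 samples, ordered by the mean of the DMSO dishes; circles are dish 1 and triangles dish 2, coloured by condition, and the 5 highest, the 5 lowest and the 8 copies are named. Most genes lie between 500 and 3022 RPKM with their 6 points close together, and *Rpl10l*, *Rpl39l* and *Rpl3l* lie below 1.

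At the other end of the order stood *Rpl3l*, *Rpl39l*, *Rpl10l*, *Rpl34* and *Rpl30*. *Rpl3l*, known from striated muscle, was between 0.0228 and 0.2 RPKM, and *Rpl39l*, known from the testis, between 0.141 and 0.258; neither passed the filter on low counts, so 82 members were tested. *Rpl10l*, an autosomal copy of *Rpl10* that is used in the testis, was between 0.626 and 0.864 RPKM. Their partners *Rpl3*, *Rpl39* and *Rpl10* stood at 1445 ± 15.9, 886 ± 11.2 and 1603 ± 30.7 RPKM in DMSO.

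The other copies were expressed at intermediate levels. *Rpl36al* was at 379 ± 3.76 RPKM in DMSO beside 780.2 ± 20.9 for *Rpl36a*, and *Rps27l*, a p53-responsive gene, at 366 ± 14.5 beside 729 ± 9.72 for *Rps27*. *Rpl22l1* was at 129.8 ± 8.26 RPKM beside 171 ± 2.13 for *Rpl22*, the narrowest gap of the 8 pairs. *Rps4l* was at 131 ± 2.68 beside 1620.0 ± 19.2 for the X-linked *Rps4x*, and *Rpl7l1* at 87.1 ± 1.82 beside 1607 ± 2.81 for *Rpl7*. The 8 copies together made up 0.0973% to 0.102% of the counts of a sample.

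Some standard subunits have copies listed in the tables that are near-identical to them. *Rpl34* was at 30.3 and 34.8 RPKM in DMSO, 31.2 and 26.4 at 25 nM and 22.9 and 34.1 at 1 µM, whereas the entry *Rpl34-ps1* was at 991 and 1059 RPKM in DMSO, 1048 and 1042 at 25 nM and 1108 and 1029.7 at 1 µM. *Rps15a* was at 76.2 ± 0.731 RPKM in DMSO beside 85 ± 12.2 for *Rps15a-ps6*, and *Rps27* at 729 ± 9.72 beside 834 ± 11.3 for the retrogene *Rps27rt*. The authors' estimation could divide reads among such copies, so the levels of these genes are uncertain. The RPKM of *Rps15a* also goes with its annotated length of 5134 bases, the longest of the members: its estimated counts in the DMSO dishes were 20009 and 16660, against 3240 and 3263 for *Rps15a-ps6*. *Rpl30* was at 44.8 to 52.3 RPKM in all 6 samples.

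The genes are spread over 19 chromosomes, with 14 on chromosome 7, 8 on chromosome 17 and 7 each on chromosomes 9 and 11. Their transcripts are short, with a median of 706.5 bases against 2816 over all genes tested, and 64 are shorter than 1000 bases. GC content ranged from 40.6% to 60.8% with a median of 50.8%, close to the 50.6% of all genes tested. Of the 13 members with several transcripts in the tables, *Rps24* had 68.7% to 72% of its counts in its main transcript, *Rpl22* 69.4% to 72.9% and *Rpl19* 70.4% to 70.7% over the 6 samples. *Rpl30* had 63.7% and 64.7% in the DMSO dishes, 65.3% and 65.2% at 25 nM and 68.5% and 66.2% at 1 µM, with 370 to 535 counts in its other transcript. For *Rps24* the range in each RA condition overlapped that of DMSO. For *Rpl19* the dishes at 25 nM overlapped those of DMSO, and at 1 µM both (70.69% and 70.68%) lay just above both of DMSO (70.67% and 70.45%). For *Rpl22* the DMSO dishes, at 71.3% in each, lay between those at 25 nM and below both at 1 µM (72.9% and 72.6%); no test of these shares was made.

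Sequences at the start sites were compared next, with the 16 members that passed the test at 1 µM RA (described with their values after the summed level) set beside the rest. RefSeq (GRCm38.p6) gave a window for 63 of the 84 genes, 13 of the 16 called at 1 µM among them. Windows ran from 10 bases before the annotated start to the 20th base of the transcript. Of the 63, 35 (55.6%) held a run of at least 6 pyrimidines on the sense strand. Among all 27025 genes with a window, tested here or not, 28.6% did. A run of at least 6 purines, the mirror of that feature, was found in 9.52% of the members and 31.9% of all genes. At the annotated start base itself, 46% of members had C or T and 31.7% had C, against 29.5% and 16.2% of all genes with a window. The windows of 6 called members with a run and 4 without are printed here to show both kinds; capitals mark the longest pyrimidine run of 6 or more, and the 11th base is the annotated start.
Rps26, chr10:128626487-128626516, minus strand: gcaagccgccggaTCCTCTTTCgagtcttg
Rplp2, chr7:141447641-141447670, plus strand: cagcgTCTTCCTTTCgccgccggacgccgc
Rps15a, chr7:118116128-118116157, minus strand: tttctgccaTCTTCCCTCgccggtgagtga
Rps6, chr4:86857348-86857377, minus strand: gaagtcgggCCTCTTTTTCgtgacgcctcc
Rps27, chr3:90213629-90213658, minus strand: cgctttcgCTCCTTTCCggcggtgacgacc
Rps12, chr10:23787190-23787219, minus strand: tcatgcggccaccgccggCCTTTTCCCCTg
Rpl36a, chrX:134585644-134585673, plus strand: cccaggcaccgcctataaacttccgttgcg
Rpl36al, chr12:69184048-69184077, minus strand: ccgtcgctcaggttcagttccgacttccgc
Rpl5, chr5:107900518-107900547, plus strand: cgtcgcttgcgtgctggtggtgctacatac
Rpl26, chr11:68901556-68901585, plus strand: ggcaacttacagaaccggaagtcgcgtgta

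By call at 1 µM, 8 of 13 called members (61.5%) and 27 of 50 not called (54%) held a pyrimidine run of 6 or more. *Rps6* carries its run across the annotated start, and *Rps26* a few bases after it. *Rpl36al* and *Rpl36a*, which had the smallest p at 1 µM, hold none of 6 bases within the printed window. The shorter string CTTTC on the sense strand was found in 22.2% of members and 3.72% of all genes.

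In the 300 bases around each start (250 before and 50 from it), CGGAAG, the core bound by ETS factors such as GABP, was found on either strand in 42 of 63 members (66.7%) and in 17.1% of all genes; 69.2% of the called and 66% of the other members held it. AAGATGG, the core of YY1 sites, was found in 10 members (15.9%) and 6.46% of all genes. By call it was in 4 of 13 called members (30.8%) and 6 of 50 not called (12%), a split that was not tested. TATAAA on the sense strand within 50 bases before the start was found in 1 member, *Rpl22l1* (1.59%), and in 2.92% of all genes. Direct repeats of the RA receptor motif (AGGTCA or its variants, of which AGTTCA was searched along with GGGTCA and also GGTTCA, on either strand) spaced by 5 bases were found in 0 members and 0.0925% of all genes, and spaced by 2 bases in 0 members and 0.259%. A match is a string in this window and not a measured site, and the lack of one concerns these 300 bases alone.

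The summed level of the genes was close to that of DMSO at 25 nM and slightly higher at 1 µM. The 84 members took 8.23% and 8.47% of the estimated counts in the DMSO dishes, 8.53% and 8.43% at 25 nM, and 8.53% and 8.68% at 1 µM. The dishes at 25 nM overlapped those of DMSO, and both dishes at 1 µM lay above both of DMSO. Means were 8.35 ± 0.168%, 8.48 ± 0.0673% and 8.61 ± 0.108% (SD, n = 2), which is an increase of 1.52% at 25 nM and of 3.05% at 1 µM relative to DMSO. An exact permutation test of 2 against 2 samples cannot go below p = 0.333 (two-sided), so no test was made. Without the first DMSO dish the increases were 0.0956% and 1.61%, and without the second they were 2.98% and 4.53%.

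**Figure D2:**
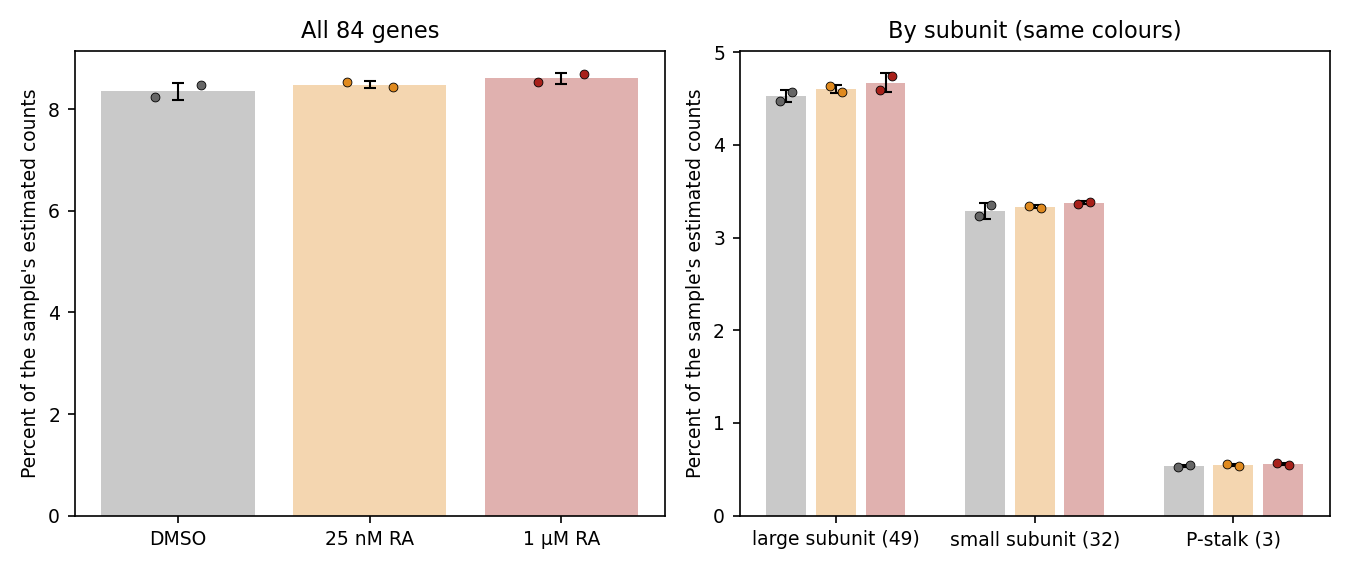
Summed estimated counts of the ribosomal protein genes as percent of each sample's counts, for all 84 genes (left) and by subunit (right); grey is DMSO, orange 25 nM RA and red 1 µM RA. Bars are means of 2 dishes, error bars SDs and points the dishes, which for all genes run from 8.23% to 8.68%.

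Summed RPKM moved a little more, from 88447 ± 1564 in DMSO to 90754 ± 1429 at 25 nM and 93036 ± 894 at 1 µM, an increase of 5.19% at the higher dose. As a share of the RPKM summed over all genes, the members held 19.9% and 20.2% in the DMSO dishes, 20.2% and 20.1% at 25 nM and 20.4% in each dish at 1 µM, an increase of 0.616% and 1.73%. The 3 scales differ in their denominator, and the counts in the tables make up 81.6% and 81.2% of the read total behind the RPKM values in the DMSO dishes, 82.5% and 81.7% at 25 nM and 82.8% and 83.2% at 1 µM. The large subunit genes took 4.53 ± 0.0678% of counts in DMSO and 4.67 ± 0.105% at 1 µM, and the small subunit genes 3.29 ± 0.087% and 3.38 ± 0.0163% (SD, n = 2). The P-stalk genes took 0.525% and 0.543% in the DMSO dishes and 0.569% and 0.55% at 1 µM.

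The first comparison asked what 25 nM RA, the lower dose, did to each gene within 2 h. *Rps26* was the single member that passed the test. Its product lies where the mRNA leaves the small subunit, and its RPKM was 1089.9 and 1001 in DMSO, 1182 and 1192 at 25 nM and 1179.7 and 1186 at 1 µM. Both RA conditions lay above DMSO without overlap, and at 25 nM the log2 fold change was 0.18 ± 0.051 (SE), with an adjusted p of 0.0101 in edgeR's likelihood ratio test.

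Of the 82 members tested, 1 was called higher at an adjusted p under 0.1 and 0 lower, where 4.5% of the 15143 genes tested were called higher and 3.55% lower. At an unadjusted p under 0.05 6 members were higher and 1 lower (background 7.52% and 7.4%). DESeq2 called 2 higher and 0 lower, and edgeR's quasi-likelihood test 1 and 0. Without the second DMSO dish or without the second dish at 25 nM no member was called higher, without the first or second dish at 1 µM 3 and 2 were, and without the first dish at 25 nM 1 was called lower. The lone sample left in a condition was assumed to vary like the others. In all 20 other fits the members' share called, in either direction, was below that of all genes.

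The members nearest to the threshold after *Rps26* were *Rps27* and *Rpl27a*. *Rps27* was at 736 and 722 RPKM in DMSO, 788 and 794 at 25 nM and 796 and 801 at 1 µM, with an adjusted p of 0.16 at 25 nM (edgeR). *Rpl27a* was at 885 and 886 RPKM in DMSO, 951 and 969 at 25 nM and 937 and 959 at 1 µM, with an adjusted p of 0.162. For both genes each RA dish lay above each DMSO dish. *Rpl22l1* went the other way, at 124 and 136 RPKM in DMSO, 126 and 112 at 25 nM and 133 and 136 at 1 µM, and its log2 fold change of -0.13 ± 0.062 had an adjusted p of 0.276.

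As a group, 67 of the 82 members had a log2 fold change above 0 at 25 nM, where 49.8% of all genes did. The median was 0.036, a rise of 2.5%, against -0.0005 over all genes tested. In 38 members both dishes at 25 nM lay above both DMSO dishes and in 1 (*Rpl39*, with 878 and 894 RPKM in DMSO and 849.6 and 855 at 25 nM) both lay below, where 22.5% and 22.3% of all genes did so. No member passed the thresholds that the study used for its lists in any comparison (a log2 fold change above 1 or below -0.6, each with a minimum RPKM), which 0.442% of genes passed upwards and 0.033% downwards at 25 nM, 0.568% and 0.139% at 1 µM, and 0.0066% and 0.0264% between the doses.

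The second comparison asked the same of 1 µM RA, and here 16 members were called higher and 0 lower. The increases were small: the log2 fold changes of the 16 lay between 0.11 and 0.3. Of the 82 members tested, these 16 are 19.5%, where 8.54% of the 15143 genes tested were called higher and 11.2% lower (edgeR's likelihood ratio test, adjusted p under 0.1). At an unadjusted p under 0.05 the counts were 21 higher and 0 lower (background 12.1% and 14.3%). edgeR's quasi-likelihood test called 20 higher and DESeq2 14, and both called 0 lower. The excess over all genes was not kept in every fit: the share of members called higher was above that of all genes in 14 of 20 other fits and below it in 6. The members are highly expressed, and their fold changes had a median SE of 0.051 against 0.077 over all genes tested.

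**Figure D3:**
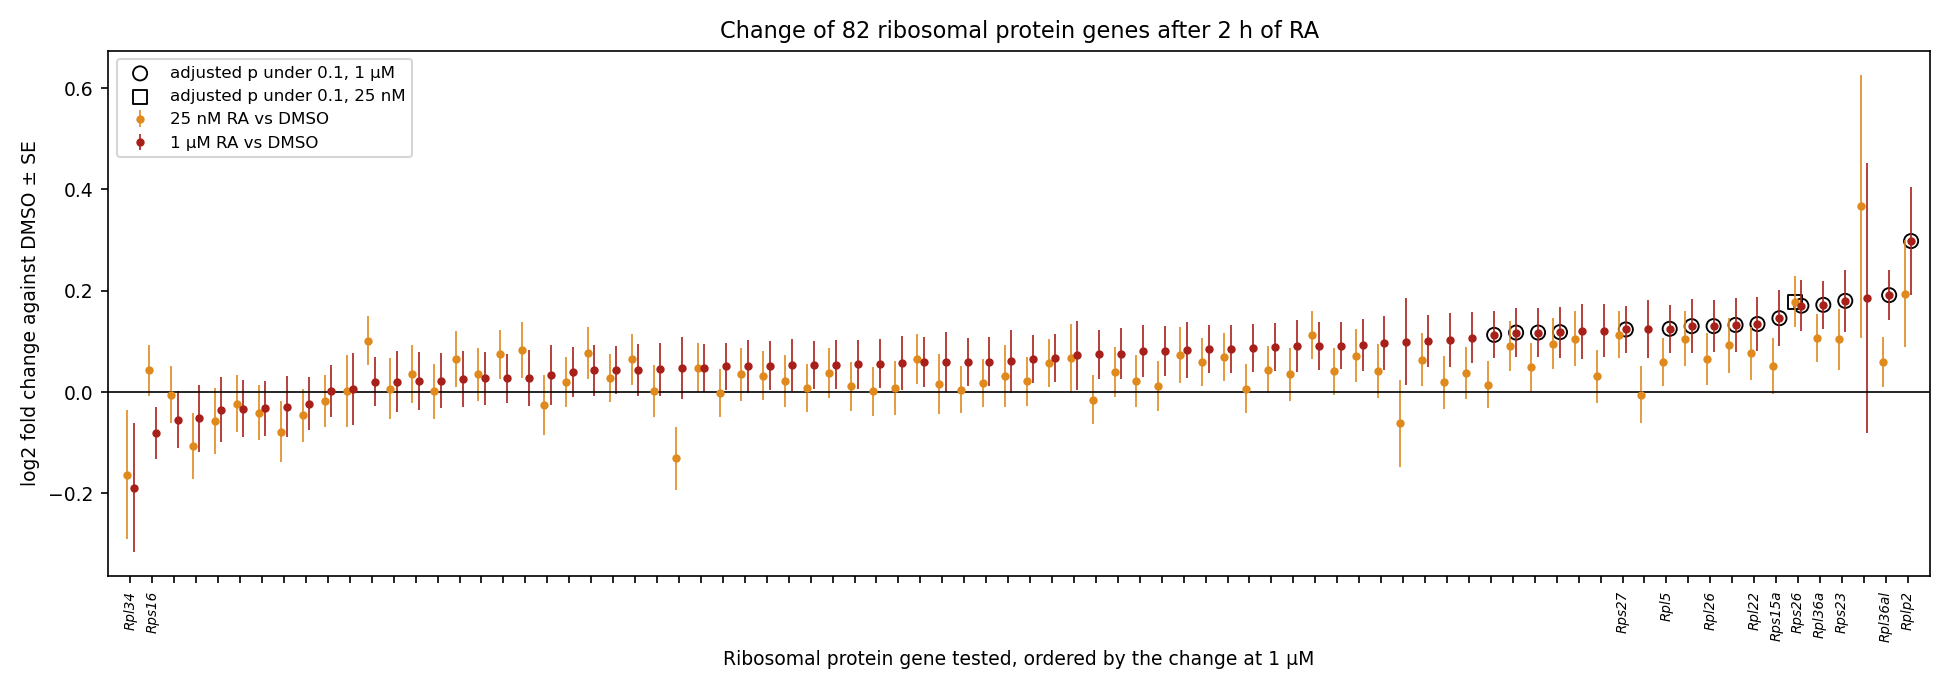
Log2 fold change against DMSO (±SE, n = 2 per condition) of the 82 ribosomal protein genes tested, ordered by the change at 1 µM RA (red) with 25 nM RA beside it (orange); circles and the square mark an adjusted p under 0.1, and names are given for the 10 genes with the smallest p at 1 µM and for *Rps16* and *Rpl34*. The 16 marked genes at 1 µM lie between 0.11 and 0.3 on the log2 scale, *Rps26* alone is marked at 25 nM, and both doses are set against the same DMSO dishes.

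*Rpl36al* and *Rpl36a*, a pair of genes that encode closely similar large subunit proteins, had the smallest p. *Rpl36al* was at 376 and 382 RPKM in DMSO, 403 and 389.7 at 25 nM and 442 and 428 at 1 µM, a log2 fold change of 0.19 ± 0.049 at 1 µM (adjusted p = 0.00123, edgeR). *Rpl36a* was at 795 and 765 RPKM in DMSO, 851 and 835 at 25 nM and 889.9 and 877 at 1 µM, a log2 fold change of 0.17 ± 0.047 (adjusted p = 0.0034). For each gene the dishes at 1 µM were the highest, those at 25 nM intermediate and those of DMSO the lowest, without overlap.

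*Rps26* rose as far at 1 µM as at 25 nM, by 0.17 ± 0.051 on the log2 scale (adjusted p = 0.0083, edgeR). *Rps23*, whose product lies at the decoding centre, was at 778 and 747 RPKM in DMSO, 789.6 and 853 at 25 nM and 912 and 823 at 1 µM, with a log2 fold change of 0.18 ± 0.061 and an adjusted p of 0.0244. The dishes at 1 µM lay above those of DMSO and on both sides of the higher dish at 25 nM. *Rplp2*, the partner of *Rplp1* in the P-stalk, had the largest log2 fold change of the called members, 0.3 ± 0.11 (adjusted p = 0.0356). Its RPKM was 851 and 829 in DMSO, 925 and 1002 at 25 nM and 1217 and 857 at 1 µM. The second dish at 1 µM was near the DMSO dishes and overlapped them in CPM, the normalised counts per library total (456 and 448 in DMSO, 656 and 456 at 1 µM), and without the first dish at 1 µM *Rplp2* was not called.

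The other 5 named by rank of p were *Rpl5*, *Rps27*, *Rps15a*, *Rpl22* and *Rpl26*. *Rpl5*, which with *Rpl11* and 5S rRNA can bind and inhibit MDM2, was at 750.5 and 738 RPKM in DMSO, 771 and 785 at 25 nM and 805 and 827 at 1 µM (adjusted p = 0.0509, edgeR), an ordered rise without overlap. Its partner *Rpl11* was at 1206 and 1229 in DMSO and 1304 and 1247 at 1 µM, with an adjusted p of 0.479. *Rps27*, with the values given above, had an adjusted p of 0.055 at 1 µM. *Rps15a* went from 75.7 and 76.7 RPKM in DMSO to 88.9 and 80.6 at 1 µM (adjusted p = 0.0559). *Rpl22* went from 173 and 169.9 to 197 and 182 (adjusted p = 0.0642), and *Rpl26* from 152 and 154 to 163 and 174 (adjusted p = 0.0651). In each of these called genes the dishes at 1 µM lay above those of DMSO.

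Further members called were *Rpl7*, *Rps12*, *Rpl17*, *Rps24* and *Rps6*, of which the last pair falls outside the rule for named genes and was chosen after its values were seen, with adjusted p between 0.0756 and 0.0955 (edgeR). *Rps12* went from 2623 and 2694 RPKM in DMSO to 2803 and 2934 at 25 nM and 3022 and 2826 at 1 µM. *Rps6*, whose product is phosphorylated by the S6 kinases, went from 931 and 929 in DMSO to 949.8 and 981 at 25 nM and 1028 and 1000.3 at 1 µM. *Rpl7* was at 1605 and 1609 RPKM in DMSO and 1719 and 1776 at 1 µM.

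By subunit, 7 of 47 large subunit members tested, 8 of 32 small subunit members and 1 of 3 P-stalk members were called higher at 1 µM. These are 14.9%, 25% and 33.3%, where 8.54% of all genes were called higher. Among the 6 copies tested, *Rpl36al* was the single one called. *Rps27l* had a log2 fold change of 0.0021 ± 0.051 at 1 µM, *Rps4l* one of 0.02 ± 0.048 and *Rpl7l1* one of 0.06 ± 0.048. *Rplp0*, *Rplp1* and *Rpsa* had log2 fold changes of 0.054 ± 0.048, 0.091 ± 0.052 and 0.065 ± 0.048, none of which passed the test. *Rpl38* was at 1224 and 1267 RPKM in DMSO, 1251 and 1221 at 25 nM and 1324 and 1313 at 1 µM, with an adjusted p of 0.332 at 1 µM (edgeR).

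The members whose fold change was below 0 at 1 µM numbered 9, led in p by *Rps16* and *Rpl34*. *Rps16* was at 998 and 949 RPKM in DMSO, 1020.4 and 992 at 25 nM and 952 and 899 at 1 µM, a log2 fold change of -0.08 ± 0.051 (adjusted p = 0.325, edgeR). *Rpl34*, with the values given above, had one of -0.19 ± 0.13 (adjusted p = 0.357). *Rps15*, *Rps14*, *Rps2*, *Rps18*, *Rpl13*, *Rps19* and *Rpl6* had log2 fold changes between -0.054 and -0.023. In none of these did the DMSO and 1 µM dishes separate.

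Markers of other cells moved in the same samples. At 1 µM, 3 of 6 fibroblast markers tested were called lower (*Col1a1*, *Col1a2* and *Postn*), 3 of 5 endoderm markers were lower and their sum went from 36.2 and 37.3 RPKM in DMSO to 27 and 28.7, and of 4 presomitic mesoderm markers 2 were higher and 2 lower. Of 5 committed neural markers, 4 were under 1 RPKM in every sample and the sum was between 10.3 and 12.1, and of the 4 tested *Tubb3* and *Dcx* were called lower at 1 µM. The part of these cells in the ribosomal protein values was not tested.

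The shift ran through most of the group. At 1 µM, 73 of the 82 members had a log2 fold change above 0, where 50.3% of all genes did, and the median was 0.063, a rise of 4.46%, against 0.0013 over all genes tested. In 44 members both dishes at 1 µM lay above both of DMSO and in 0 both lay below, where 27.2% and 27.1% of all genes did so. The quartiles of the members were 0.04 and 0.11 on the log2 scale, so the spread among members was about as wide as the median shift.

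The calls were sensitive to single dishes. Without the first DMSO dish 4 members (4.88%) were called higher at 1 µM, where 5.42% of all genes were. Without the second DMSO dish 2 members (2.44%) were, of the 16 *Rpl36al* alone, where 5.07% of all genes were. Without the first dish at 1 µM 8 members (9.76%) were, 5 of the 16 among them, where 5.6% of all genes were. Leaving out either DMSO dish thus brought the members' share below that of all genes. The median stayed above 0 when any dish was left out, between 0.045 and 0.094 on the log2 scale. All 16 called members kept a log2 fold change above 0 in each of the 18 other fits, and *Rpl36al* was called in 18 of them, *Rpl36a* in 17 and *Rps26* in 16.

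Genes of similar transcript length moved in the same direction. The length band was the 5th to the 95th percentile of the members, 391 to 1877 bases, and held 3991 other genes tested. Their median log2 fold change was 0.026 at 25 nM, beside 0.036 for the members, and 0.043 at 1 µM, beside 0.063. At 1 µM, 10.9% of them were called higher and 4.38% lower, and at 25 nM 4.44% and 1.38%. The 3552 of them with a coding transcript had medians of 0.027 and 0.047. Of the 3991 genes, 2470 had a log2 fold change above 0 at 1 µM and 2423 at 25 nM, beside 73 and 67 of the 82 members.

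**Figure D4:**
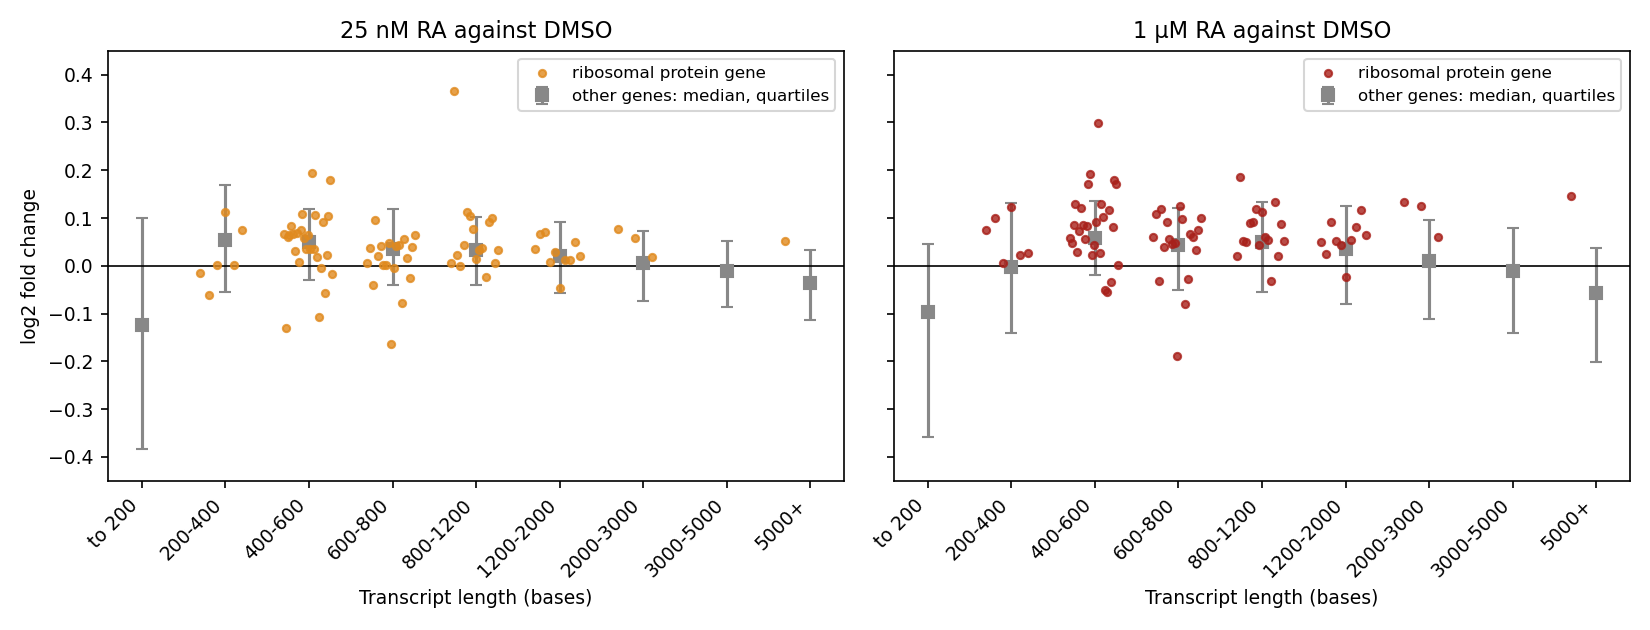
Log2 fold change against transcript length in bases for 25 nM RA (left) and 1 µM RA (right); grey squares are the medians of all other genes tested in each length class with their quartiles, and points are ribosomal protein genes. At 1 µM the medians of other genes fall from 0.059 at 400 to 600 bases to -0.0565 above 5000 bases, and the classes of up to 400 bases lie lower, at -0.097 and -0.002.

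Over all genes the change differed with length, though not in 1 direction throughout. At 1 µM the median log2 fold change was -0.097 for the 83 other genes of up to 200 bases and -0.002 for 39 genes of 200 to 400 bases, a class that holds 6 members, *Rpl38*, *Rpl39*, *Rps21*, *Rps27*, *Rps28* and *Rps29*. It was 0.059 for the 233 other genes of 400 to 600 bases, 0.043 for 347 genes of 600 to 800 bases, 0.05 for 1018 genes of 800 to 1200 bases, 0.0094 for 3536 genes of 2000 to 3000 bases and -0.0565 for 2548 genes above 5000 bases. When each sample was given an offset fitted on transcript length, 5 members (6.1%) were called higher at 1 µM, where 9.09% of all genes were in the same fit, and the median was 0.029. At 25 nM 0 members were called higher, where 4.17% of all genes were, and 1 was called lower, with a median of 0.0021. The 5 that stayed were *Rpl36a*, *Rpl36al*, *Rplp2*, *Rps15a* and *Rps26*. Of these, *Rps15a* has an annotated length of 5134 bases and thus falls in the class above 5000 bases, whose median was below 0. The part of length in the shift was not tested further.

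Mitochondrial ribosomal proteins, which are encoded in the nucleus and serve another ribosome, gave similar figures. Of 77 tested, 3 were called higher at 25 nM and 13 at 1 µM, and 0 lower at either dose, with median log2 fold changes of 0.047 and 0.061. Over all genes tested 4.5% were called higher and 3.55% lower at 25 nM, and 8.54% and 11.2% at 1 µM. *Mrps31* went from 20.4 and 19.5 RPKM in DMSO to 21.3 and 22 at 25 nM and 23.6 and 23.7 at 1 µM. Whether the cytosolic and mitochondrial groups differ was not tested.

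In the direct comparison of 1 µM with 25 nM no member passed the test. edgeR's likelihood ratio test, its quasi-likelihood test and DESeq2 each called 0 higher and 0 lower, where 0.792% of genes were called higher and 2.62% lower by the first. At an unadjusted p under 0.05, 4 members were higher at 1 µM and 1 lower (background 4.7% and 8.07%). The median log2 difference was 0.03 against 0.0003 over all genes tested, and 65 of the 82 members lay above 0, where 50.1% of all genes did. In 26 members both dishes at 1 µM lay above both at 25 nM and in 2 both lay below, where 21.4% and 22.2% of all genes did so.

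*Rpl22l1* came nearest, with a log2 difference of 0.18 (95% interval 0.056 to 0.3) and an adjusted p of 0.113 (edgeR). *Rpl36al* differed by 0.13 (95% interval 0.036 to 0.23, adjusted p = 0.15), its dishes at 1 µM lying above both at 25 nM. *Rps26* differed by -0.0081, with a 95% interval from -0.11 to 0.092. *Rps16* was lower at 1 µM by a log2 difference of -0.12 (adjusted p = 0.241). The calls depended on single dishes. Across 20 other fits the members' share called higher was above that of all genes in 3, and the share called lower in 1. When 1 dish at a time was left out, the median log2 difference lay between 0.0253 and 0.044.

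Duplicates were least alike at 1 µM. The SD over members of the log2 difference between dish 1 and dish 2 was 0.068 for DMSO, 0.061 at 25 nM and 0.14 at 1 µM. *Rplp2* differed by 0.52 between the 1 µM dishes, and *Rpl34* by -0.56. *Rpl39*, which lines the tunnel through which the new chain leaves, was at 1081 and 827 RPKM in the dishes at 1 µM, against 878 and 894 in DMSO, and was not called (adjusted p = 0.496, edgeR). The median difference was -0.037 for DMSO, 0.018 at 25 nM and -0.014 at 1 µM, so the DMSO dishes differed from each other in the group as a whole by about as much as 25 nM RA differed from DMSO.

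**Figure D5:**
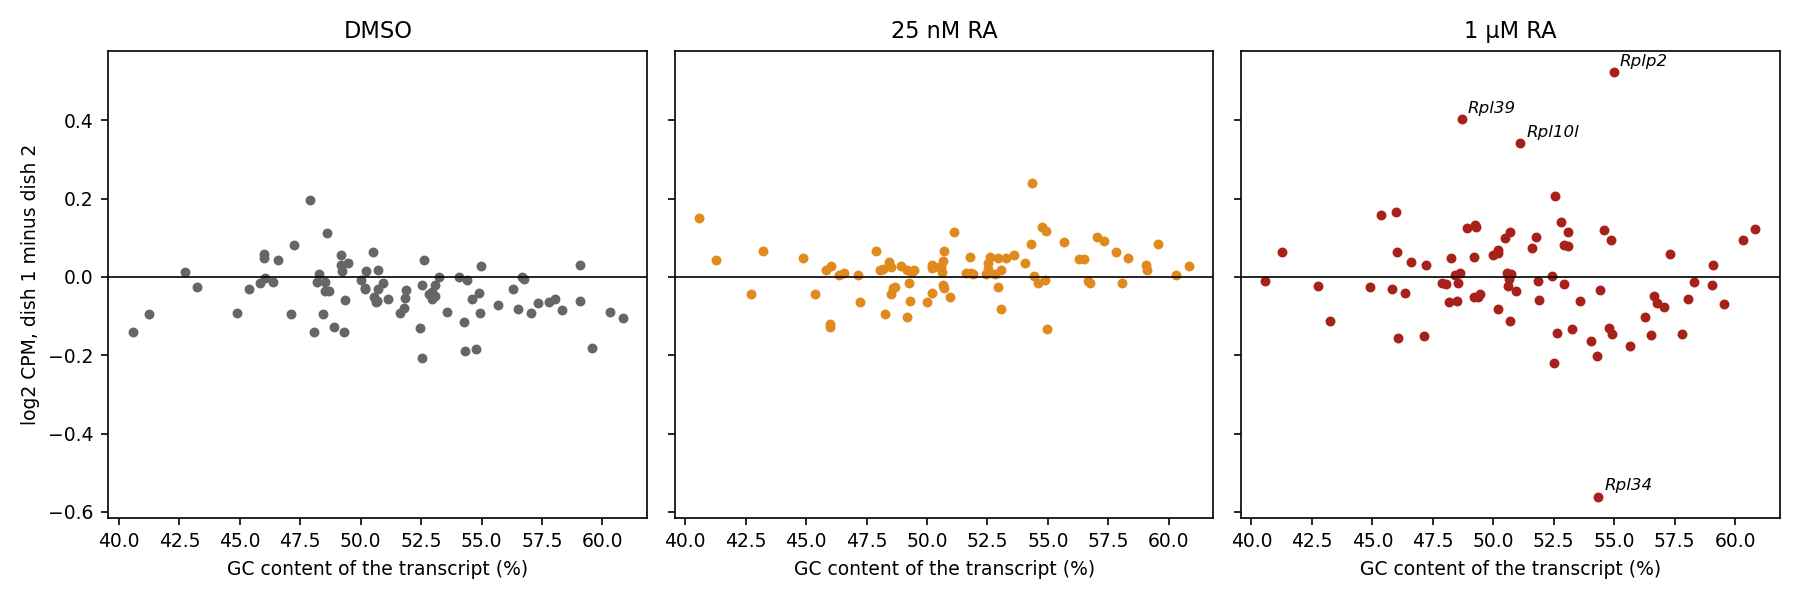
Difference between duplicate dishes (log2 CPM of dish 1 minus dish 2) of the 82 ribosomal protein genes tested against the GC content of the transcript (%), for DMSO, 25 nM RA and 1 µM RA; genes past 0.3 in either direction are named. Points spread widest at 1 µM, where *Rplp2* lies at 0.52 and *Rpl34* at -0.56.

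The difference between dishes went with GC content in each condition. Across the 82 members Spearman's rho was -0.28 for DMSO, 0.26 at 25 nM and -0.16 at 1 µM, and across 1971 other genes at or above the members' 5th percentile of level it was -0.41, 0.58 and -0.55; genes of one library share its preparation, and these are descriptions. Across members the change at 1 µM had a rho of -0.4 with GC content: the called members had a median GC content of 48.9%, those not called 52.2% and the 9 below 0 one of 54.8%. With an offset fitted on GC content 26 members were called higher at 1 µM, and with offsets on both GC content and length 4 were, with medians of 0.071 and 0.024. Both settings were chosen after seeing the data.

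Genes that work with the ribosomal proteins were described in the same fit. *Fau* and *Gnb2l1* (*Rack1*), ribosomal proteins that the name rule does not reach, were at 843 ± 27.1 and 1481 ± 55.7 RPKM in DMSO (SD, n = 2), and neither passed the test at either dose. *Rps3a1*, added to them after its name was noticed, was at 1546 ± 3.02 RPKM in DMSO and 1637 ± 71.4 at 1 µM and did not pass the test.

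Of 16 translation factors and other TOP mRNAs, 0 were called higher and 1 lower at 25 nM (background 4.5% and 3.55% of all genes). At 1 µM 2 were called higher and 3 lower (background 8.54% and 11.2%). *Tpt1* (971.7 and 985.7 RPKM in DMSO, 1116 and 1053 at 1 µM) and the initiation factor subunit *Eif3e* (209.7 and 201.7 in DMSO, 236 and 218 at 1 µM) were those higher. *Pabpc1*, the poly(A) binding protein, was lower at 1 µM, at 128 and 124 RPKM in DMSO, 119 and 128 at 25 nM and 106 and 102 at 1 µM (adjusted p = 2.84e-06, edgeR), as were *Vim* and *Eif3f*. The elongation factor *Eef1a1*, at 5963 ± 63.7 RPKM in DMSO, had a log2 fold change of 0.065 ± 0.056 at 1 µM.

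Of 68 ribosome biogenesis genes tested, 2 were called higher at 25 nM and 8 at 1 µM, and 0 lower, with medians of 0.026 and 0.05. The background over all genes was 4.5% higher and 3.55% lower at 25 nM, and 8.54% and 11.2% at 1 µM. *Ncl*, nucleolin, went from 112 and 109 RPKM in DMSO to 118 and 135 at 25 nM and 127 and 128 at 1 µM, and was called at both doses (adjusted p = 0.0351 and 0.0112, edgeR). *Nip7* was the other gene called at 25 nM. *Nop10* and *Polr1d* were called at 1 µM with log2 fold changes of 0.18 ± 0.05 and 0.16 ± 0.051.

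Among 25 regulators of mTOR and of TOP mRNAs, 0 were called higher and 2 lower at 25 nM (background 4.5% and 3.55% of all genes). At 1 µM 1 was called higher and 6 lower (background 8.54% and 11.2%). The median log2 fold changes of the list were 0.015 and -0.0081. The genes named here were those with the smallest p by dose, and the 1 called higher was not among them. *Ddit4*, a stress-induced inhibitor of mTORC1, was at 42.2 and 47.8 RPKM in DMSO, 32.8 and 34.4 at 25 nM and 27.2 and 32.7 at 1 µM, and was lower at both doses (adjusted p = 1.21e-06 and 3.54e-13, edgeR). *Sesn2*, another inhibitor, was at 18.9 and 18.6 RPKM in DMSO, 17.6 and 16.1 at 25 nM and 15.3 and 16 at 1 µM, and was also lower at both doses. *Larp1* was at 37.4 and 36.1 RPKM in DMSO, 35.6 and 34.8 at 25 nM and 31.7 and 30.1 at 1 µM, and differed between the doses (adjusted p = 0.0139). *Eif4ebp2*, a repressor of the cap-binding protein, was at 13.1 and 13 RPKM in DMSO, 11.1 and 12 at 25 nM and 9.44 and 10.3 at 1 µM, and was lower at 1 µM (adjusted p = 2.21e-07).

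Small nucleolar RNAs that lie within members on the same strand, which are processed from the introns of the host, gave other values than their hosts. Of 27 such genes, 22 were tested. At 25 nM 0 were called higher and 3 lower (background 4.5% and 3.55% of all genes), with a median of -0.17. At 1 µM 1 was called higher and 0 lower (background 8.54% and 11.2%), with a median of -0.15. *Snord15b*, in *Rps3*, was at 200.3 and 246 RPKM in DMSO, 199.5 and 136 at 25 nM and 206 and 194 at 1 µM, while *Rps3* itself was at 669 and 709, 710.3 and 683, and 729 and 736. Genes of up to 200 bases that are not members had medians of -0.12 and -0.097, and that class includes small nucleolar RNAs such as these. *Snord16a*, in *Rpl4*, was the one called higher, at 7.47 and 12.5 RPKM in DMSO and 12.7 and 17.2 at 1 µM.

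Of 9 pseudogenes and retrogenes of the family, 6 were tested. *Rps27rt* was called higher at 1 µM, from 842 and 826 RPKM in DMSO to 909.6 and 915, by 0.12 ± 0.047 on the log2 scale, as was *Rps27*, with which it may share reads. *Rplp2-ps1* was called lower at both doses, from 1.01 and 1.84 RPKM in DMSO to 0.325 and 0.0452 at 25 nM and 0.339 and 0.0163 at 1 µM, and the duplicates of each RA condition lay far apart. *Rpl34-ps1* did not pass the test at either dose, with log2 fold changes of 0.023 ± 0.055 and 0.054 ± 0.055.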

How the data were processed

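RNA-seq was analysed for 6 samples, 2 culture dishes for each of 3 conditions, grouped by the sample labels. The authors prepared ribosomal RNA-depleted stranded libraries, mapped the single-end reads to mm10 and divided them among transcripts by an expectation-maximization step. The submitters' processing notes list TopHat2 2.0.13, Bowtie2 2.2.5.0 and Partek 6.6. The deposited estimated counts, not normalized, were made by the authors per RefSeq transcript, and so were the deposited RPKM values, which divide reads by the length of the transcript and the library's reads. Counts and RPKM were summed here per gene.

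Rounded counts were fitted in edgeR 4.0.16 (R 4.3.3) with TMM normalization, filterByExpr and the likelihood ratio test that the methods name, over all 6 samples and 15143 genes, with Benjamini-Hochberg adjustment and a threshold of 0.1; the biological coefficient of variation was 0.0351. Depth was 31753556 to 42029348 counts per sample. The members and lists were chosen with earlier results of these data known. Named genes were, in each comparison, the 10 members with the smallest p in each direction, of which the text gives those past or nearest the threshold, the 5 highest and lowest in DMSO, the 8 copies with their partners, the P-stalk genes and *Rpsa*, and the 3 genes with the smallest p per dose of each other list. GC content came from annotated transcripts, with a value for 84 of 84 members and 15065 of the genes tested. Alternatives included edgeR's quasi-likelihood test, DESeq2 1.42.0, other scalings and filters, and offsets for length and GC content. Scripts were tested on simulated data. Python 3.11.15 with pandas 2.3.3, scipy 1.17.1 and matplotlib 3.10.9 was used. Some items are not reported here.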

Additional observations from a re-analysis of the deposited data

How the results depend on the processing

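Members called higher at 1 µM numbered 16 and became 5 with total counts, 8 without a filter beyond a count above 0 in 1 sample, 6 with transcripts tested separately, 5 at an adjusted p under 0.05, 5 with the length offset, 26 with the GC offset and 4 with both offsets. Their share was no longer above that of all genes in the same fit with total counts (6.1% against 6.45%), at an adjusted p under 0.05 (6.1% against 6.22%), with the length offset (6.1% against 9.09%), with both offsets (4.88% against 8.79%) and without either DMSO dish, and remained above it in 14 of 20 fits, such as without a filter (9.52% against 5.34%), with transcripts (5.88% against 3.8%) and with the GC offset (31.7% against 9.67%). At 25 nM the members' share was below that of all genes in all 20 fits, and the 1 became 2 with DESeq2, 3 with only the 4 samples compared, 0 with the length offset and 2 with the GC offset. Members called lower went from 0 to 1 (length offset) and 2 (both offsets) at 25 nM and to 1 (both offsets) at 1 µM, and between the doses 1 (length offset) and 2 (GC offset) were called higher. Between the doses the members' share called higher was above that of all genes in 3 of 20 fits, and the share called lower in 1. Leaving out 1 dish at a time gave 0 to 3 higher and 0 to 1 lower at 25 nM, 2 to 18 and 0 to 1 at 1 µM, and 0 to 5 and 0 to 2 between the doses. The median log2 fold change was 0.0021 (length offset) and -0.0009 (both offsets) at 25 nM, 0.043 (total counts), 0.029 (length offset) and 0.024 (both offsets) at 1 µM, and 0.058 (GC offset) between the doses, and ranged over 0.0204 to 0.0631, 0.0446 to 0.0939 and 0.0253 to 0.044 when a dish was left out. The summed share rose by 0.0956% to 2.98% at 25 nM and 1.61% to 4.53% at 1 µM when a dish was left out, and by 5.19% at 1 µM as summed RPKM. The GC offsets were chosen after seeing the data. Apart from the offsets, the smaller sample sets and the stricter threshold, the cause was not tested.

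The numbers were not taken to pair the dishes: correlations of same-numbered deviations were -0.044 (DMSO and 25 nM), 0.049 (DMSO and 1 µM) and -0.059 (both doses) over all genes, -0.49, 0.15 and -0.56 over the 82 members, and -0.042, 0.43 and -0.25 over 1973 genes at or above the members' 5th percentile of level. Among the members 2 of the 3 pairs thus deviated in opposite directions. With the replicate number as a block 1 member was called higher at 25 nM, 12 at 1 µM and 0 between the doses, and 0 lower in each. Depth left *Rpl3l* and *Rpl39l* untested. Over all genes, DESeq2 called 385 higher and 182 lower at 25 nM (681 and 538 in edgeR), 726 and 868 at 1 µM (1293 and 1690) and 39 and 119 between the doses (120 and 396), transcripts tested separately gave 318 lower at 25 nM, 839 higher and 994 lower at 1 µM and 242 lower between the doses, and between the doses the quasi-likelihood test gave 77 and 259, the length offset 219 and 252, the GC offset 190 higher, both offsets 152 lower and an adjusted p under 0.05 gave 74 higher.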
